A study of Mus musculus with 11 samples.

Results

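Microglia transplanted into the mouse brain were compared with 2 reference states at the same time, the primary microglia kept in culture and the resident microglia of the brain. A gene was taken where all 4 transplanted libraries lay above, or all 4 below, every one of the 7 reference libraries, so that its level was not on the line from culture to resident. Of 12590 genes tested, 964 met this rule, 517 above and 447 below both references. The CD30 ligand gene Tnfsf8, the adhesion gene Vcam1 and the inhibitory receptor gene Pvrig were above both references. The chemokine receptor gene Ccr2 and the MHC class II genes H2-Ab1 and Cd74 were below both. So were 8 of 14 markers of border-associated macrophages, beside 3.55% of all genes tested. Of these 8, 5 (F13a1, Clec10a, Pf4, Cd163 and Cbr2) also passed a stricter test given later, beside 0.294% of all genes. Other markers of those cells, such as Siglec1, Ms4a7 and Stab1, were not below both.

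All libraries carried the Cx3cr1-GFP genotype, which places a green fluorescent reporter in microglia. Cultured primary microglia gave 3 libraries, and resident and transplanted microglia, both purified by FACS (fluorescence-activated cell sorting), gave 4 libraries each. The transplanted cells had been in the brain for 3 months. A treatment text that the labels attach to every library describes 3 depletion cycles ahead of transplantation with PLX3397, which blocks the receptor Csf1r, at 600 mg/kg of chow. Whether the mice that gave resident cells received it, which cells were transplanted, and the age and sex of the mice are not stated in the sources used here. The series text states the purpose as finding out how far transplanted cells take up the programme of naive microglia. No label says that replicates came from separate animals or cultures, so the p-values cover the spread among these libraries, which may be technical.

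Microglia are macrophages that settle in the brain before birth and renew themselves there. They lose much of their tissue programme in culture and can regain a large part of it in the brain. Border-associated macrophages live beside them in the meninges, perivascular spaces and choroid plexus, and carry the scavenger receptors Cd163 and Mrc1 and the chemokine gene Pf4. MHC class II molecules, a heterodimer of an alpha and a beta chain with the invariant chain Cd74 as chaperone, present peptides to CD4 T cells. H2-DM exchanges the peptide that they carry, and H2-O restrains H2-DM.

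Levels are given as CPM, counts scaled to a common library total, after TMM scaling of the authors' expected counts, and differences on the log2 scale. Total expected counts ranged from 18692721 to 19761208 in transplanted libraries, from 19055655 to 19965631 in resident and from 26705034 to 28219696 in cultured libraries. A count of 0 allows a level of up to 3 counts, or 0.135 to 0.147 CPM depending on the library, with counting error alone considered. Resident replicate 1 stood apart in immediate-early genes, with 16497 summed CPM against 1283 to 1459 in the other resident libraries and 1432 to 1798 in transplanted libraries. Resident replicate 4 had 21.3 summed CPM of sex-linked genes, against 208 to 240 in the other resident libraries, and transplanted replicates 1 and 2 had 106 and 86.7 against 247 and 255 in replicates 3 and 4. The means of the 6 landmark genes placed transplanted cells between the references. Tmem119, a microglial surface marker, stood at 4874, 5172, 6357 and 6561 CPM in transplanted libraries, with 5781 to 6452 in resident and 8.95 to 13.5 in cultured libraries. Cx3cr1 stood at 4219 to 4730 CPM in transplanted, 4462 to 5102 in resident and 179 to 210 in cultured libraries, and both sorted groups thus carried these markers. The lipid carrier gene Apoe stood at 6878, 1740, 5486 and 8211 CPM in transplanted replicates 1 to 4, above resident libraries (412 to 766) and below cultured libraries (82450 to 87884).

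The contrast of the transplanted mean with the equal-weight mean of both references called 7628 genes, 60.6% of those tested, with edgeR's quasi-likelihood test at a Benjamini-Hochberg adjusted p under 0.05. Of these, 4102 (32.6%) were higher and 3526 (28%) lower in transplanted cells. Of the calls 53.8% were higher, against 82.6% when the authors' TPM values were fitted with limma, a scale on which the median difference from cultured cells over all genes was 0.99 in place of 0.07. This contrast also passes where transplanted cells match one reference and the other is far away: the transplanted mean lay between the reference means at 1523 of the higher and 1243 of the lower genes. The references themselves were called different at 9710 genes, 77.1% of those tested. A stricter call therefore asked for a difference in the same direction from each reference, with the larger of both p-values adjusted over all 12590 genes, and is named below as called beyond both. It took 69 genes (0.548%), 32 above (0.254%) and 37 below (0.294%). At an unadjusted p under 0.05 it would have taken 425 above and 379 below.

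The 964 genes outside both references were mostly further from culture than resident cells were. At 755 of them (78.3%) the references were called different and transplanted cells lay past the resident end, 389 above and 366 below. At 195 (20.2%) the references were not called different, 121 above and 74 below. At 14 (1.45%) transplanted cells lay past the cultured end, 7 in each direction. Over all genes tested the references were called different at 77.1%, so the share of genes with different references was close to the background. These 964 genes were 7.66% of those tested, 4.11% above and 3.55% below. The distance from the nearer reference was small at most of them, with a median log2 difference of 0.34 for the 517 genes above and -0.30 for the 447 below. It was at least 2-fold at 48 genes above and 64 below. Of the 517 genes above, 111 were called against resident cells (background 4.03% higher) and 504 against cultured cells (background 39.4%). Of the 447 genes below, 103 were called against resident cells (background 3.22% lower) and 442 against cultured cells (background 36.9%). The position rule and these tests read the same libraries, so the counts describe the members and carry no further weight. All 69 genes called beyond both also met the position rule. Just inside the threshold were Cst7 (0.0481) and Snx6 (0.0496), and just outside it Mrc1 (0.0506) and Ccl8 (0.0560).

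**Figure D1:**
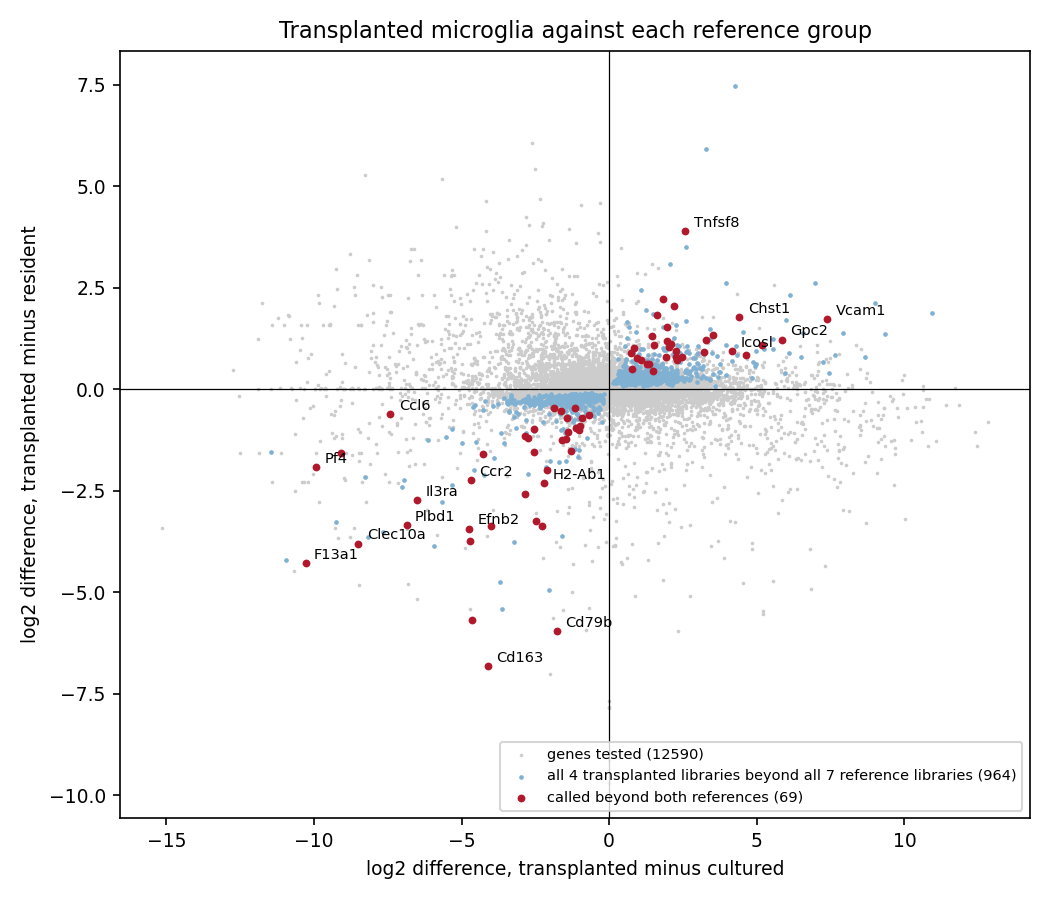
Log2 difference of transplanted from resident cells (vertical axis) against that from cultured cells (horizontal axis), 1 point per gene tested, with 964 genes outside both references in blue and 69 called beyond both in red. Genes in the upper right and lower left corners are outside both references in the same direction, with Tnfsf8 above and F13a1, Clec10a and Cd163 below.

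**Figure D2:**
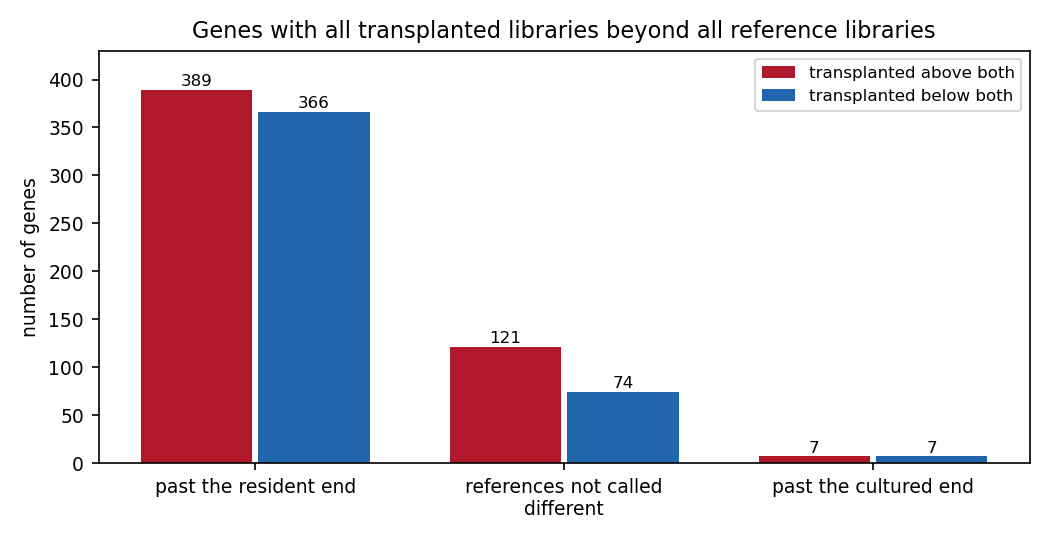
Number of genes (vertical axis, from 0) whose transplanted libraries all lay above (red) or below (blue) all reference libraries, by how the references differed. Most of them, 389 above and 366 below, were past the resident end, and 7 in each direction were past the cultured end. The references were called different at 77.1% of all genes tested.

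The genes above both references had mixed roles. Tnfsf8 (Entrez 21949, chromosome 4: 63831202 to 63861508, GRCm38.p6), the ligand of CD30, stood at 33.6, 38.6, 38.6 and 38.4 CPM in transplanted replicates 1 to 4. It stood at 2.26, 1.91, 2.51 and 3.33 in resident and 7.35, 5.46 and 5.94 in cultured replicates. The lowest transplanted library was more than 4 times the highest reference library. Cultured cells were above resident cells at this gene (adjusted p = 2.29e-05), so transplanted cells lay past the cultured end. The difference was 3.89 ± 0.18 (log2 ± SE) from resident and 2.58 ± 0.18 from cultured cells, with an adjusted p of 5.57e-05 for both together (edgeR quasi-likelihood test, as for every adjusted p of a gene here). Among genes called beyond both, it had the largest difference above.

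Vcam1 (Entrez 22329, chromosome 3: 116110020 to 116129688), the adhesion molecule bound by alpha-4 integrins, stood at 59.7, 34.6, 32.0 and 74.3 CPM in transplanted libraries. It stood at 12.99, 14.4, 10.7 and 22.9 in resident and 0.0960, 0.246 and 0.540 in cultured libraries. The transplanted libraries spread over a wide range and the lowest of them was above the highest resident library. The difference was 1.72 ± 0.31 from resident and 7.39 ± 0.54 from cultured cells (adjusted p = 0.0293). Pvrig (Entrez 102640920, chromosome 5: 138341931 to 138348691), an inhibitory receptor of the nectin family best known from lymphocytes, stood at 63.3, 67.0, 71.2 and 72.3 CPM in transplanted libraries. It stood at 21.9 to 31.2 in resident and 4.17 to 7.03 in cultured libraries, and no groups overlapped. The difference was 1.33 ± 0.16 from resident and 3.50 ± 0.19 from cultured cells (adjusted p = 0.00252). Fgl2 (Entrez 14190, chromosome 5: 21372673 to 21378386), a fibrinogen-like protein with coagulant and immunoregulatory roles, stood at 57.4, 52.2, 103 and 67.2 CPM in transplanted libraries. The references overlapped at this gene, at 14.1 to 22.2 in resident and 10.5 to 17.9 in cultured libraries, and were not called different (adjusted p = 0.605). Transplanted cells differed by 2.05 ± 0.24 from resident and 2.19 ± 0.27 from cultured cells (adjusted p = 0.00252). Icosl, the ligand of the T cell costimulator ICOS, stood at 234, 207, 211 and 256 CPM in transplanted, 105 to 125 in resident and 8.16 to 18.2 in cultured libraries, at 0.94 ± 0.18 from resident cells (adjusted p = 0.0398). Vcam1 was not called when resident replicate 1, 2 or 3 or transplanted replicate 1 or 4 was left out (adjusted p 0.0922 to 0.126). Icosl was not called without any single resident or transplanted library or without cultured replicate 3 (0.0614 to 0.163). With the trend on gene length removed, Icosl was not called either (0.0850).

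Genes of a sulfotransferase, a kynurenine enzyme and a proteoglycan were also above both. Chst1 (Entrez 76969, chromosome 2: 92599632 to 92615252), a sulfotransferase of keratan sulfate, stood at 34.7, 37.2, 37.9 and 47.3 CPM in transplanted libraries. Resident libraries stood at 9.07, 14.1, 14.1 and 8.94, and cultured libraries at 1.63, 2.85 and 1.03. All transplanted libraries were more than 2-fold above every resident library, with a difference of 1.77 ± 0.24 from resident and 4.41 ± 0.32 from cultured cells (adjusted p = 0.00486). Haao (Entrez 107766, chromosome 17: 83831348 to 83848981), the kynurenine pathway enzyme that makes the precursor of quinolinic acid, stood at 23.03, 18.1, 19.8 and 27.0 CPM in transplanted libraries. The 4 resident libraries lay close together at 7.43 to 7.81, and cultured libraries stood at 4.42 to 6.79. The difference was 1.52 ± 0.16 from resident and 1.95 ± 0.19 from cultured cells (adjusted p = 0.00173). Gpc2 (Entrez 71951, chromosome 5: 138273657 to 138280026), a heparan sulfate proteoglycan of the cell surface and a neighbour of Pvrig on the chromosome, stood at 61.7 to 76.6 CPM in transplanted, 27.6 to 31.0 in resident and 0.639 to 1.58 in cultured libraries. It differed by 1.22 ± 0.15 from resident and 5.84 ± 0.22 from cultured cells (adjusted p = 0.00252).

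Gpr84 and Cst7, which microglia are known to raise in disease models, were above both with smaller margins. Gpr84, a receptor for medium-chain fatty acids, stood at 202, 266, 431 and 405 CPM in transplanted, 107, 160, 150 and 143 in resident and 26.3 to 39.5 in cultured libraries. It differed by 1.22 ± 0.23 from resident cells (adjusted p = 0.0327). Cst7, which encodes the cathepsin inhibitor cystatin F, stood at 12.9, 13.4, 17.9 and 25.2 CPM in transplanted, 5.87 to 9.12 in resident and 3.26 to 5.06 in cultured libraries, at 1.18 ± 0.24 from resident cells (adjusted p = 0.0481). Cst7 was 1 of 25 disease-associated microglia genes, of which it alone was called above and Ccl6 alone below, beside 0.254% and 0.294% of all genes tested. Apoe, on the other hand, lay between the references. The transcription factor gene Bhlhe41 stood at 350 to 477 CPM in transplanted, 198 to 230 in resident and 74.9 to 103 in cultured libraries. It differed by 0.93 ± 0.13 from resident and 2.25 ± 0.15 from cultured cells (adjusted p = 0.00512). Bhlhe41 was the only 1 of 18 microglial transcription factors called beyond both, beside 0.548% of all genes tested. The cyclin gene Ccnd1 stood at 67.4 to 87.5, 46.2 to 57.6 and 27.6 to 35.7 CPM in the same order, at 0.62 ± 0.12 from resident cells (adjusted p = 0.0356). No other of 31 cell cycle genes met the position rule, beside 7.66% of all genes tested. Gpr84 was not called without cultured replicate 3, any single resident library or transplanted replicate 3 or 4 (0.0522 to 0.120). Cst7 was not called without any 1 library other than cultured replicates 1 and 2 (0.0542 to 0.168), nor Ccnd1 without cultured replicate 3, resident replicate 2, 3 or 4 or any transplanted library (0.0522 to 0.149). Removing the trend on gene length also lost the call of Ccnd1 (0.0669).

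The other named genes above were Ripor2, an inhibitor of the GTPase RhoA, Pxdc1 and the heat shock protein gene Hspa12a. Ripor2 stood at 17.8, 22.2, 47.7 and 30.1 CPM in transplanted libraries, with 4.92 to 8.30 in resident and 7.67 to 9.03 in cultured libraries. It differed by 1.81 ± 0.30 from cultured cells, the nearer reference (adjusted p = 0.0185). Pxdc1 stood at 23.6 to 35.3 CPM in transplanted, 7.40 to 8.85 in resident and 5.19 to 13.4 in cultured libraries, at 1.61 ± 0.26 from cultured cells (adjusted p = 0.0178). Hspa12a stood at 15.8 to 24.5, 8.35 to 10.02 and 3.15 to 5.23 CPM, at 1.10 ± 0.18 from resident cells (adjusted p = 0.0185). Without cultured replicate 1 or 3 or transplanted replicate 4, Ripor2 was not called (0.0566 to 0.0627), and it was not called with the trend on gene length removed (0.0923). Without cultured replicate 3 or transplanted replicate 1 or 4, Pxdc1 was not called (0.0530 to 0.0618). Hspa12a was not called without any single resident library or without transplanted replicate 1, 2 or 4 (0.0510 to 0.0748). Of the genes above with under a 2-fold margin, the following were picked after their values were seen. The calcium channel gene Trpm2, which responds to oxidative stress, stood at 180 to 223 CPM in transplanted, 107 to 115 in resident and 7.49 to 8.74 in cultured libraries (adjusted p = 0.00173). Tnfsf13b, the B cell activating factor BAFF, stood at 44.9 to 55.7, 21.2 to 34.1 and 4.42 to 6.68 CPM (adjusted p = 0.0327). The cannabinoid receptor gene Cnr2 stood at 56.2 to 70.9, 36.03 to 38.3 and 9.51 to 14.7 CPM (adjusted p = 0.0165). Tnfsf13b was not called without resident replicate 1, 2 or 4 or any single transplanted library (adjusted p = 0.0693 to 0.139), nor Cnr2 without resident replicate 1, 2 or 4 or transplanted replicate 1 or 4 (adjusted p = 0.0527 to 0.0712).

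**Figure D3:**
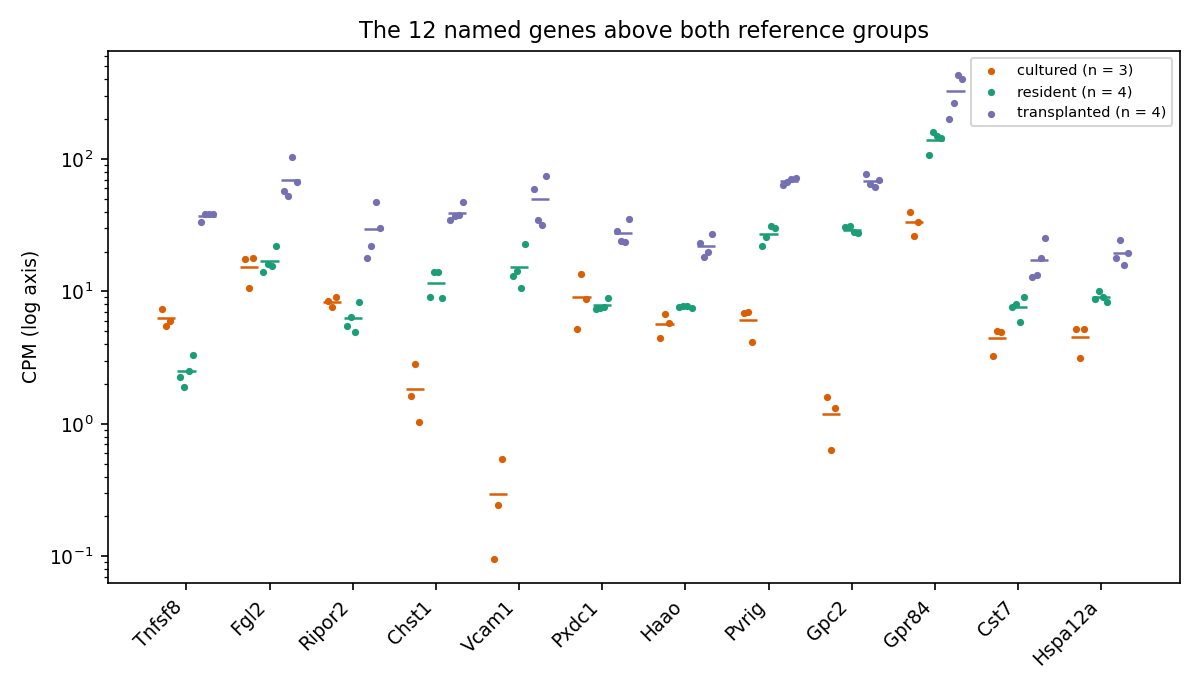
CPM per library (log axis) for the 12 genes named above both references, with 1 point per library and a bar at each group mean (cultured n = 3, resident n = 4, transplanted n = 4). In each gene all transplanted points lie above all reference points, as the rule requires, with the widest gap at Tnfsf8.

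Of 14 border-associated macrophage markers tested, 5 were called below both references (F13a1, Clec10a, Pf4, Cd163 and Cbr2) and 0 above, beside 0.294% and 0.254% of all genes tested. In 8 of the 14, adding Mrc1, Ccl8 and Folr2, all transplanted libraries lay below every reference library, beside 3.55% of all genes. The median of the list was -3.20 against resident and -4.71 against cultured cells, beside 0.01 and 0.07 over all genes tested. F13a1 (Entrez 74145, chromosome 13: 36867178 to 37050244), the A chain of coagulation factor XIII, stood at 0.181, 1.77, 0.557 and 0.482 CPM in transplanted replicates 1 to 4. It stood at 11.1, 24.8, 10.6 and 11.9 in resident and 1148, 551 and 1085 in cultured replicates. The 3 groups lay far apart, with transplanted cells at -4.29 ± 0.50 from resident and -10.28 ± 0.58 from cultured cells (adjusted p = 0.00252). Clec10a (Entrez 17312, chromosome 11: 70166623 to 70170836), a galactose-binding lectin, stood at 0.0453, 0.0479, 0.0929 and 0.0964 CPM in transplanted libraries, all under the level of 3 counts. It stood at 0.7101 to 1.45 in resident and 22.6 to 36.6 in cultured libraries, a difference of -3.81 ± 0.42 from resident cells (adjusted p = 0.00177). Its near copy Mgl2 was below both as well (0.0453 to 0.575 CPM in transplanted and 1.66 to 3.51 in resident libraries, adjusted p = 0.0185), and reads of the pair may have been shared by the authors' counting. Mgl2 was not called without resident replicate 2 or 4 or transplanted replicate 1, 3 or 4 (adjusted p = 0.0542 to 0.0672).

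Cd163 (Entrez 93671, chromosome 6: 124304636 to 124330529), the haemoglobin scavenger receptor, stood at 0, 0.0958, 0.0929 and 0 CPM in transplanted libraries. It stood at 4.83, 8.44, 4.12 and 6.39 in resident and at 1.58, 0.639 and 0.491 in cultured libraries, so transplanted cells lay past the cultured end. The difference was -6.81 ± 0.63 from resident and -4.11 ± 0.73 from cultured cells (adjusted p = 0.0257). Pf4, the platelet factor 4 chemokine gene, stood at 1.63, 1.29, 0.743 and 1.93 CPM in transplanted, 3.598 to 7.598 in resident and 994 to 1914 in cultured libraries, at -1.92 ± 0.32 from resident cells (adjusted p = 0.0185). Cbr2, a carbonyl reductase gene, stood at 0.544, 1.72, 0.418 and 0.627 CPM in transplanted libraries, with 3.03 to 6.95 in resident and 4.80 to 7.97 in cultured libraries, which overlapped. It differed by -2.59 ± 0.42 from resident and -2.85 ± 0.44 from cultured cells (adjusted p = 0.0165). Mrc1, the mannose receptor, stood at 12.5 to 22.1 CPM in transplanted, 27.6 to 56.5 in resident and 627 to 824 in cultured libraries (adjusted p = 0.0506, not called).

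Not all markers of these cells were below both. Cd209f and Cd209a had 0 counts in every transplanted and every cultured library, against 2.27 to 6.67 and 1.89 to 4.38 CPM in resident libraries. Lyve1 stood at 0 to 0.431 CPM in transplanted, 3.08 to 4.15 in resident and 0.288 to 0.541 in cultured libraries. Siglec1 lay between the references, at 7.53 to 16.5 CPM in transplanted against 3.74 to 8.20 in resident libraries. Ms4a7 stood at 14.8, 1.58, 7.34 and 24.2 CPM in transplanted replicates 1 to 4, with resident libraries at 2.62 to 5.78 inside that range. Stab1 stood at 355 to 601 CPM in transplanted and 499 to 590 in resident libraries. The summed level of the list was 395 to 641 CPM in transplanted, 588 to 690 in resident and 4625 to 4927 in cultured libraries, and Stab1 made up most of it in both sorted groups. Resident replicate 2 had the highest resident level of F13a1, Cd163, Mrc1, Clec10a and Pf4. In bulk samples fewer cells of a type and less RNA per cell cannot be told apart. Cd163 was not called without cultured replicate 1, resident replicate 2 or 4 or transplanted replicate 1, 3 or 4 (0.0519 to 0.0863), nor on the TPM scale (0.963). Cbr2 was not called without resident replicate 2 or transplanted replicate 1, 3 or 4 (0.0529 to 0.0608) or with the length trend removed (0.0945), and Pf4 not without resident replicate 2 or transplanted replicate 1, 2 or 3 (0.0514 to 0.0558).

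MHC class II genes differed from the references in opposite directions. Of 15 class II and costimulation genes tested, 2 were called above (Icosl and H2-DMa) and 2 below (H2-Ab1 and Cd74), beside 0.254% and 0.294% of all genes, with medians of 0.07 against resident and 1.08 against cultured cells beside 0.01 and 0.07 over all genes. The windows upstream of the start sites are shown for H2-DMb2 and H2-DMa, which lay above both references, and for H2-DMb1, which did not. They are also shown for the classical chain genes H2-Eb1 and H2-Aa, which were low against resident cells but not against cultured cells. For H2-Ab1 and Cd74, the 2 genes called below both, no window was used. The windows come from RefSeq, build GRCm38.p6, and run from 140 to 21 bases before the start site. Capitals mark matches on either strand to GATTGG, the core of the Y box bound by the factor NF-Y (its reverse strand reads CCAATC), and to AACNNATG, a short form of the X box at which the class II transactivator is assembled. No 2 matches overlap.
H2-DMb2 (chr17:34145109-34145228): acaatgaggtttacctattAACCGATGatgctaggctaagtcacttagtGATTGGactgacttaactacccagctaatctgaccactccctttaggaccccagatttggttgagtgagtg
H2-DMb1 (chr17:34153051-34153170): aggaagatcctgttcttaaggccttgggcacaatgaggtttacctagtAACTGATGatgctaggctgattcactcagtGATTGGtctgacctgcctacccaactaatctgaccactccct
H2-DMa (chr17:34122692-34122811): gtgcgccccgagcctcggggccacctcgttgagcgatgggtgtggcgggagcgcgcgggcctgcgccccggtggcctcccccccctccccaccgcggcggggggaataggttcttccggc
H2-Eb1 (chr17:34305727-34305846): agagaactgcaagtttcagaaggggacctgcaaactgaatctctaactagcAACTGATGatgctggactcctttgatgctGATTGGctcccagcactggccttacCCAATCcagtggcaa
H2-Aa (chr17:34287844-34287963): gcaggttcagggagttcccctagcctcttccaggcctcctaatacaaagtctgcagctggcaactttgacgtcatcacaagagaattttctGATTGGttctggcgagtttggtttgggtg
H2-Aa lies on the minus strand and the others on the plus strand, and each sequence reads 5′ to 3′ along its gene. GATTGG was found in 16.1% and AACNNATG in 8.86% of 32851 mouse promoters of 300 bases, and both in 1.4%. H2-DMb2, H2-DMb1 and H2-Eb1 held both, as did H2-Ob, while H2-Aa held GATTGG alone. H2-DMa held neither in the window shown, and GATTGG only upstream of its second listed start site, outside the window. Both start sites lie inside the span of the gene (34119693 to 34139101). No window at the start of that span was looked at, so these letters do not describe every H2-DMa promoter. A match is a description of the letters and was not tested as a binding site.

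The classical class II genes were low in transplanted cells. H2-Ab1 (Entrez 14961, chromosome 17: 34263227 to 34269418), the beta chain of I-A, stood at 10.6, 8.23, 8.50 and 16.7 CPM in transplanted libraries. It stood at 34.5, 74.5, 57.8 and 53.5 in resident and 45.4, 61.1 and 44.4 in cultured libraries, so the references overlapped and were not called different (adjusted p = 0.664). The difference was -2.32 ± 0.26 from resident and -2.19 ± 0.27 from cultured cells (adjusted p = 0.00283). Cd74 (Entrez 16149, chromosome 18: 60803849 to 60812652) stood at 24.1, 27.1, 22.7 and 40.3 CPM in transplanted, 70.9, 151, 120 and 110 in resident and 105, 151 and 112 in cultured libraries. It differed by -1.98 ± 0.24 from resident and -2.10 ± 0.25 from cultured cells (adjusted p = 0.00252), again with overlapping references (adjusted p = 0.661). Both genes kept their direction on the TPM scale but were not called there (-1.08, adjusted p = 0.0852 and -0.99, adjusted p = 0.0812 from the nearer reference). H2-Aa and H2-Eb1 shared the low level against resident cells but not against cultured cells. H2-Aa stood at 0.883 to 2.60 CPM in transplanted, 13.7 to 40.5 in resident and 0.738 to 1.39 in cultured libraries. H2-Eb1 stood at 1.07 to 3.28, 16.2 to 43.1 and 0.540 to 0.836 CPM. Resident replicate 2 was the highest resident library in all 4 of these genes and replicate 1 the lowest.

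The peptide exchange genes of the pathway did not share that level. H2-DMa (Entrez 14998, chromosome 17: 34119693 to 34139101) stood at 412, 383, 317 and 352 CPM in transplanted, 223, 211, 270 and 244 in resident and 143, 141 and 148 in cultured libraries. It differed by 0.63 ± 0.11 from resident and 1.35 ± 0.12 from cultured cells (adjusted p = 0.01996). H2-DMb2 stood at 19.1 to 28.1 CPM in transplanted, 12.9 to 16.8 in resident and 14.4 to 17.0 in cultured libraries, all transplanted libraries above the rest, and was not called (0.53 ± 0.15 from cultured cells, adjusted p = 0.263). H2-DMb1, a near copy of H2-DMb2, stood at 131 to 192 CPM in transplanted and 154 to 192 in resident libraries, which overlapped, and reads of the pair may have been shared. The class II transactivator gene Ciita stood at 1.72 to 2.14 CPM in transplanted, 1.80 to 3.47 in resident and 0.240 to 0.443 in cultured libraries, and was not beyond both. H2-Oa and H2-Ob lay near the resident level. H2-DMa was not called without resident replicate 1, 2 or 4 or transplanted replicate 1, 2 or 4 (0.0608 to 0.0889).

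**Figure D4:**
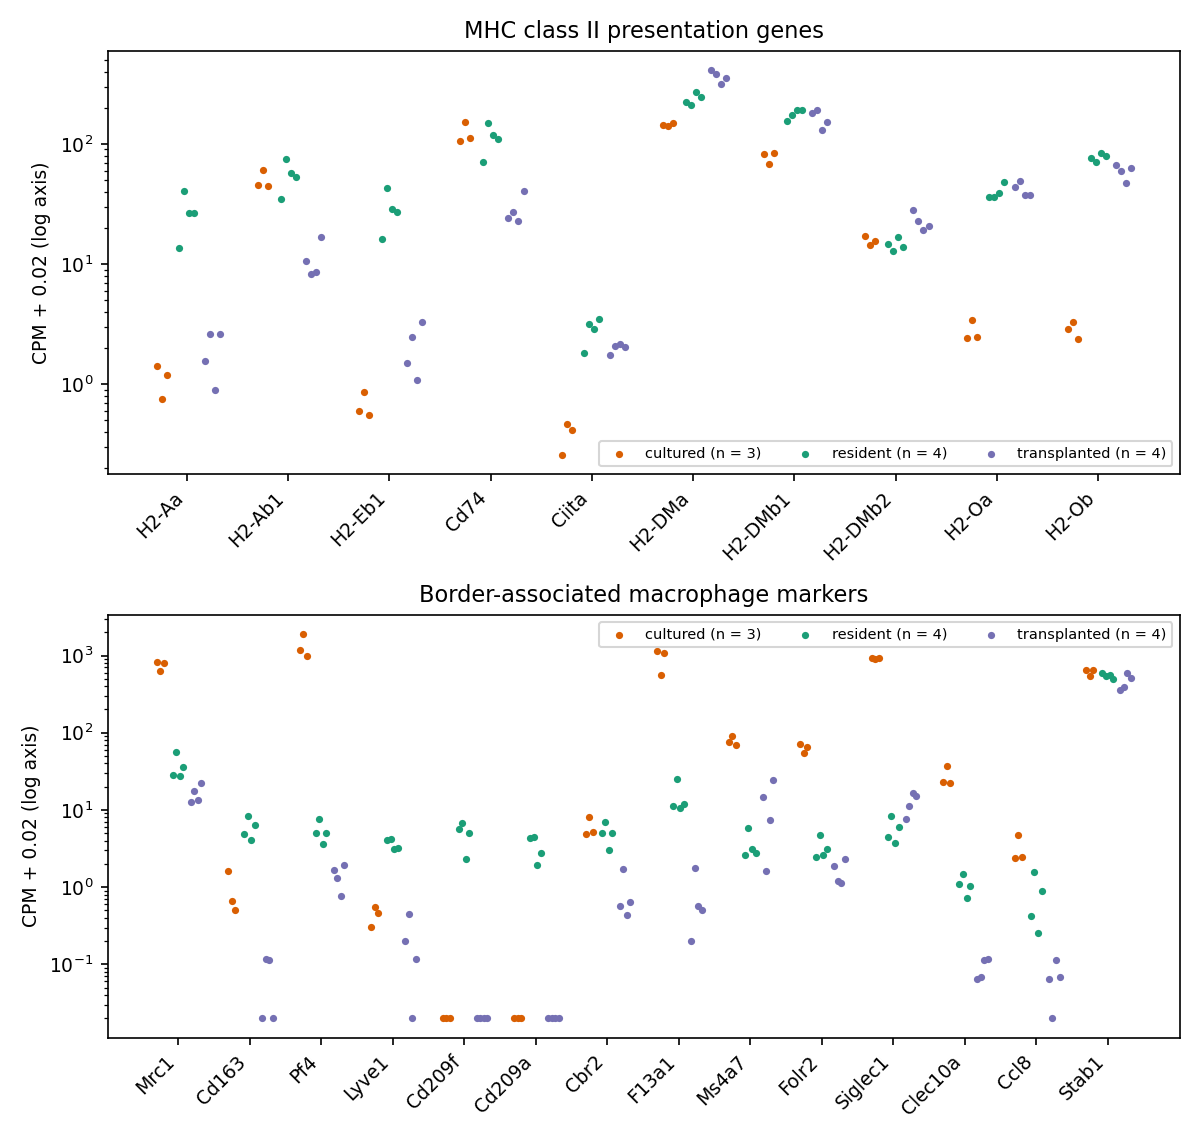
CPM + 0.02 per library (log axis) for 10 MHC class II presentation genes (top) and 14 border-associated macrophage markers (bottom), cultured n = 3, resident n = 4, transplanted n = 4; points on the lowest level of the bottom panel are 0 counts. All transplanted libraries lie below both references at H2-Ab1, Cd74, F13a1, Clec10a, Pf4, Cd163, Cbr2, Mrc1, Ccl8 and Folr2 and above both at H2-DMa and H2-DMb2. Mrc1, Ccl8, Folr2 and H2-DMb2 were not called beyond both.

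Ccr2 and Il3ra, receptor genes for a chemokine and a cytokine, were below both references. Of 28 chemokine and cytokine receptor genes listed, Ccr2 alone was called below and 0 above, and of 29 cytokine and chemokine ligand genes Ccl6 alone was called below and 0 above, beside 0.294% below and 0.254% above over all genes. Il3ra and Crlf2, a cytokine receptor gene picked after its values were seen, are not on that list. Crlf2 stood at 20.5 to 31.0 CPM in transplanted, 42.6 to 62.6 in resident and 44.2 to 61.1 in cultured libraries (adjusted p = 0.0214), and its difference from the nearer reference changed sign to 0.12 on the TPM scale. Removing the length trend also lost the call of Crlf2 (0.596). Ccr2 (Entrez 12772, chromosome 9: 124101918 to 124109140), the receptor that draws monocytes out of the bone marrow, stood at 0.907, 2.06, 1.58 and 1.54 CPM in transplanted libraries. It stood at 6.36, 9.56, 5.78 and 6.98 in resident and 43.0, 33.4 and 42.0 in cultured libraries. No groups overlapped, and the difference was -2.23 ± 0.24 from resident and -4.70 ± 0.25 from cultured cells (adjusted p = 0.00173). Ccr2 was the only 1 of 13 monocyte markers called beyond both, beside 0.548% of all genes tested. The summed level of that list was 15.8 to 21.5 CPM in transplanted and 12.9 to 24.2 in resident libraries, against 13774 to 16981 in cultured libraries. Il3ra (Entrez 16188, chromosome 14: 14345912 to 14355493), the alpha chain of the interleukin 3 receptor, stood at 0.317, 0.0479, 0.325 and 0.434 CPM in transplanted, 1.44 to 2.37 in resident and 21.9 to 33.0 in cultured libraries. It differed by -2.74 ± 0.37 from resident cells (adjusted p = 0.00509). Ccl6, a CC chemokine gene, stood at 78.0 to 106 CPM in transplanted, 120 to 157 in resident and 15397 to 15863 in cultured libraries, at -0.62 ± 0.11 from resident cells (adjusted p = 0.0260). Ccl6 was not called without resident replicate 2, 3 or 4 or transplanted replicate 1, 3 or 4 (0.0755 to 0.123). The chemokine gene Ccl3 met the position rule at 4.92 to 6.99 CPM in transplanted libraries, with resident libraries at 143, 9.88, 8.05 and 7.98 and resident replicate 1 far from the others, and was not called (adjusted p = 0.310).

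Signalling and adhesion genes below both included Efnb2, Vangl1 and Rgs7bp. Efnb2 (Entrez 13642, chromosome 8: 8617235 to 8661242), which encodes ephrin-B2, a contact-dependent guidance ligand, stood at 0.272, 0.431, 0.0929 and 0.771 CPM in transplanted libraries. It stood at 2.51 to 5.19 in resident and 6.34 to 16.5 in cultured libraries, a difference of -3.44 ± 0.49 from resident cells (adjusted p = 0.00674). Vangl1 (Entrez 229658, chromosome 3: 102153583 to 102204744), a planar cell polarity protein, stood at 1.09, 0.670, 1.77 and 1.35 CPM in transplanted, 11.7 to 13.9 in resident and 4.22 to 6.98 in cultured libraries. Transplanted cells lay past the cultured end, at -2.27 ± 0.28 from cultured and -3.36 ± 0.27 from resident cells (adjusted p = 0.00252), but the gene was not called on the TPM scale (-0.47, adjusted p = 0.255). Rgs7bp, which anchors a regulator of G protein signalling at the membrane, stood at 0.680, 1.82, 0.465 and 1.88 CPM in transplanted libraries, with 9.25 to 13.5 in resident and 3.98 to 9.29 in cultured libraries, which overlapped. It differed by -2.48 ± 0.42 from cultured cells (adjusted p = 0.0186), and was not called without transplanted replicate 1 (0.0624), with each pair of groups fitted alone (0.0610) or on the TPM scale (0.219). Plbd1, a phospholipase B-like protein gene, stood at 0 to 0.241 CPM in transplanted, 0.722 to 2.80 in resident and 16.6 to 19.97 in cultured libraries (-3.35 ± 0.54 from resident cells, adjusted p = 0.0166). Without transplanted replicate 1, 3 or 4 it was not called (0.0510 to 0.0572).

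Cd79b (Entrez 15985, chromosome 11: 106311341 to 106314562), known as a chain of the B cell receptor complex, stood at 0.272, 0.479, 0.465 and 0.241 CPM in transplanted libraries. It stood at 17.5, 25.5, 23.1 and 26.2 in resident and 1.54, 0.738 and 1.47 in cultured libraries, so the resident libraries stood apart from both other groups. The difference was -5.96 ± 0.29 from resident and -1.76 ± 0.34 from cultured cells (adjusted p = 0.0398). Its partner chain Cd79a stood at 0.232 to 0.541 CPM over all 11 libraries, and the B cell marker Ms4a1 did not exceed 0.240 CPM in any. The call against both references was lost in 16 of 20 alternatives, among them without any single library other than cultured replicate 2 (0.0528 to 0.147), with upper-quartile scaling (0.0646), with the length trend removed (0.456) and on the TPM scale (0.809).

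**Figure D5:**
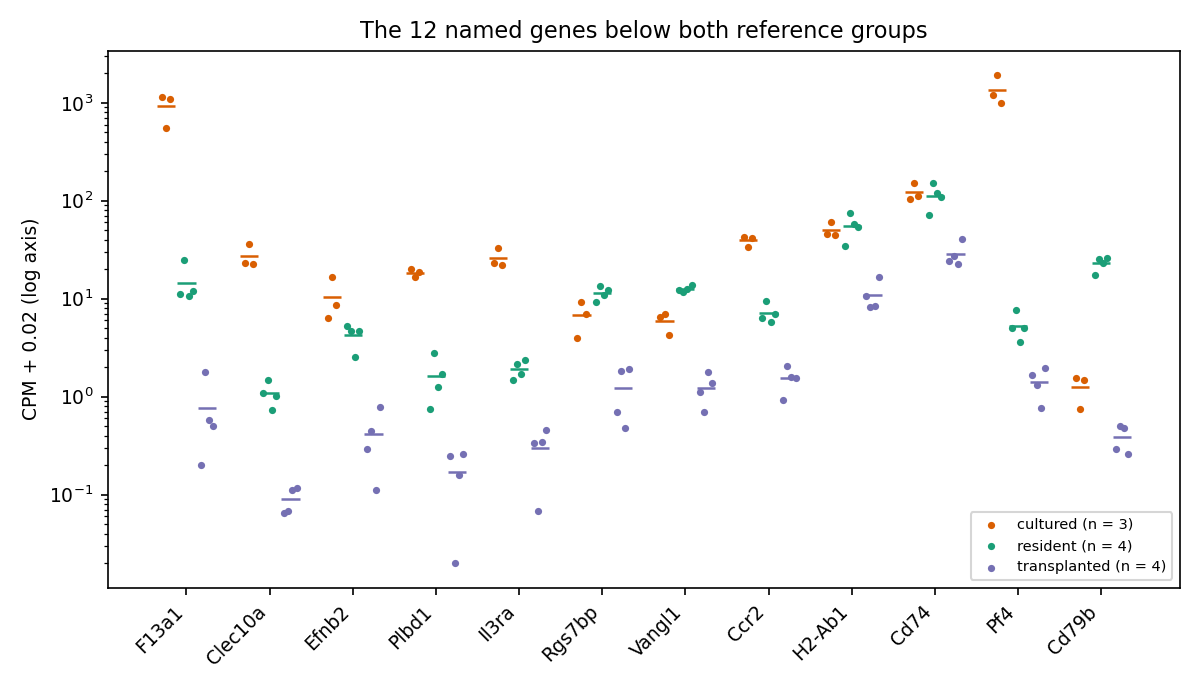
CPM + 0.02 per library (log axis) for the 12 genes named below both references, with 1 point per library and a bar at each group mean (cultured n = 3, resident n = 4, transplanted n = 4). Transplanted points lie below all reference points in each gene, as the rule requires. F13a1 and Pf4 span the widest range between cultured and transplanted cells, and at H2-Ab1 and Cd74 both references lie at the same height.

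Of 25 homeostatic microglia genes, 1 was called above and 0 below, beside 0.254% and 0.294% of all genes tested. That gene was Gpr84, named earlier as raised in disease models, and the count rests on it alone. All transplanted libraries lay above at 2 of the 25, beside 4.11% of all genes. The other was Olfml3, at 3687 to 4214 CPM in transplanted against 2538 to 3225 in resident libraries (adjusted p = 0.159). The summed level of that list was 66967 to 82068 CPM in transplanted and 76160 to 84965 in resident libraries. Of 29 interferon response genes, 0 were called beyond both (background 0.548%) and 3 (Ddx58, Parp14 and Stat2) had all transplanted libraries above (background 4.11%). The list median was 0.55 against resident and 0.00 against cultured cells, beside 0.01 and 0.07 over all genes. The antiviral signal carrier Stat2 stood at 52.0 to 63.5 CPM in transplanted, 38.4 to 42.8 in resident and 8.02 to 18.5 in cultured libraries (adjusted p = 0.421). The class I gene H2-Q6 stood at 23.5 to 47.6 CPM in transplanted, 7.05 to 21.3 in resident and 5.99 to 9.15 in cultured libraries (adjusted p = 0.0680, not called), with reads that may be shared among the H2-Q copies.

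Of 27 nuclear-encoded respiratory chain genes, 0 were called beyond both in edgeR's test (background 0.548%), while 14 had all transplanted libraries below every reference library, against 3.55% of genes tested. All 27 were lower in the contrast with both references together (background 28%), and their median was -0.19 against resident and -2.73 against cultured cells. The cytochrome oxidase gene Cox4i1 stood at 93.8 to 110 CPM in transplanted, 112 to 134 in resident and 789 to 1230 in cultured libraries, at -0.28 from resident cells (adjusted p = 0.330 for that difference). Ndufa4 stood at 19.0 to 21.9 CPM in transplanted, 26.9 to 31.3 in resident and 34.3 to 62.0 in cultured libraries, at -0.44 from resident cells (adjusted p = 0.116). Of 25 immediate-early and dissociation stress genes, 19 were lower in the contrast with both references together (background 28%) and 0 were called beyond both (background 0.548%). The summed level of the list was 1432 to 1798 CPM in transplanted libraries, which overlapped resident replicates 2 to 4 at 1283 to 1459 CPM. The list median of -2.15 against resident cells includes resident replicate 1. Egr2, the member that met the position rule, stood at 1.34 to 2.07 CPM in transplanted, 79.0, 2.10, 2.46 and 2.65 in resident and 434 to 523 in cultured libraries. Lists of lysosome, cholesterol, TGF-beta, glucocorticoid and complement genes had 0 members beyond both by either criterion. Over all genes tested, 0.548% were called beyond both and 7.66% met the position rule.

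Summed levels of markers of other cell types differed between the sorted groups in some lists. Summed lymphocyte and NK markers stood at 1.59 to 2.67 CPM in transplanted and 19.1 to 29.4 in resident libraries, and Cd79b made up most of the resident sum. Summed oligodendrocyte precursor markers stood at 1.81 to 4.92 and 0.135 to 0.730 CPM. Summed neutrophil markers stood at 943 to 1155 CPM in transplanted and 735 to 826 in resident libraries, with the receptor gene Csf3r at 943 to 1155 and 734 to 826 of it. Summed endothelial markers stood at 27.3 to 32.1 CPM in transplanted and 47.6 to 64.5 in resident libraries, and summed astrocyte markers at 145 to 272 and 212 to 270. Summed oligodendrocyte markers stood at 164 to 179 and 179 to 191 CPM. Choroid plexus and ependymal markers ranged from 9.98 to 62.0 CPM in transplanted and from 0.180 to 105 in resident libraries. The part of other cell types in the genes beyond both references was not tested.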

How the data were processed

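The deposited table gives, per the file headers, an expected count, a TPM and an FPKM per gene and library for 16894 genes by Entrez identifier. The deposited expected counts are the authors' estimates without scaling to library size, and the deposited TPM values also correct for gene length. HISAT, Bowtie2 and the build GRCm38.p6 were used, per the submitters' processing notes, and RNA went through TRIzol and a Smart-Seq protocol, per the labels' protocols. For versions, the read counter, the annotation and strandedness, the sources used here give nothing. No use was made of the 11 FPKM columns. RefSeq (GRCm38.p6) gave symbols and coordinates for 16845 identifiers (99.7%).

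Counts were rounded and all 11 libraries, grouped by title, were fitted once with edgeR 4.0.16 (R 4.3.3; TMM, filter on expression, quasi-likelihood test, 12590 genes), after the steps were tested on simulated data. Errors of log2 differences are standard errors. Calls were made at an adjusted p (Benjamini-Hochberg) under 0.05. Named were the 12 genes per direction with the largest difference from the nearer reference, called beyond both, with all libraries beyond and a group mean of at least 10 CPM, leaving out unnamed gene models and pseudogenes; up to 4 called members per list; and 6 landmark genes. The members and the 36 gene lists were chosen with earlier results of these data known. No set of genes was tested. Same-numbered libraries of different groups had deviations correlated at -0.08 to 0.14, and no label says that numbers pair them, so no block was used. Alternatives were DESeq2 1.42.0, upper-quartile scaling, 2 other filters, limma 3.58.1 on log2(TPM + 1) at a mean TPM of at least 1, removal of the trend on gene length, a replicate block, pairs of groups fitted separately, other weights of the references, a test against 1.5-fold and leaving out each library. Promoter motifs were sought on both strands.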

Additional observations from a re-analysis of the deposited data

Results flagged for a closer look

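Within groups of 4 libraries, 108 sets of values were looked at and 11 held a library far from the other 3, while chance marks about 1 in 20. Tnfsf8 stood at 33.6 CPM in transplanted replicate 1 against 38.4 to 38.6 in the others. Cbr2 stood at 1.72 CPM in transplanted replicate 2 against 0.418 to 0.627. F13a1 stood at 24.8 CPM in resident replicate 2 against 10.6 to 11.9, and Icosl at 105 against 121 to 125. Pxdc1 stood at 8.85 CPM in resident replicate 4 against 7.40 to 7.57, and Ccnd1 at 57.6 in resident replicate 1 against 46.2 to 47.9.

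The other 5 were summed levels of lists. Resident replicate 1 had 76160 CPM of homeostatic microglia genes against 84671 to 84965, 16497 CPM of immediate-early and dissociation stress genes against 1283 to 1459, and 3.92 CPM of erythroid markers against 0.233 to 0.473. Transplanted replicate 1 had 15.8 CPM of monocyte markers against 20.9 to 21.5. Resident replicate 4 had 21.3 CPM of sex-linked genes against 208 to 240. Without resident replicate 1, 17 genes above and 26 below were called beyond both references, against 32 and 37 with all libraries, and without resident replicate 4 the counts were 19 and 20. What sets these libraries apart was not tested.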

How the results depend on the processing

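Of the 69 genes called beyond both references, 11 stayed called under every alternative that could be fitted: Ccr2, Chst1, Clec10a, Efnb2, F13a1, Fam171a1, Fgl2, Haao, Il3ra, Pvrig and Tnfsf8. With DESeq2, 94 genes above and 101 below were called, all 69 among them. On the TPM scale 95 above and 20 below were called, 862 and 175 genes had all transplanted libraries above or below, and the contrast with both references together called 7162 higher and 1509 lower; 4 called genes below changed sign there (Crlf2 to 0.12, Gmpr to 0.38, Map3k20 to 0.10 and Nrep to 0.13), and the cause was not tested. With pairs of groups fitted separately 79 were called above, and against a 1.5-fold difference 5 above and 9 below. With the replicate number as a block, which no label says pairs the libraries, 18 above and 19 below were called, 35 of the 69 among them, and the contrast with both references together called 3945 higher and 3370 lower. Of the 31 called genes named by the selection rule, 12 were not called with the block. These were Ccl6, Ccnd1, Cd163, Cd79b, Cst7, Gpr84, H2-DMa, Hspa12a, Icosl, Plbd1, Pxdc1 and Ripor2.

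With single libraries left out, calls beyond both ranged from 11 (without transplanted replicate 4) to 78 (without cultured replicate 2) above and from 16 (without resident replicate 2) to 67 (without cultured replicate 2) below. Other libraries moved them by over 1.5 times as well: 17 above without resident replicate 1, 14 above without resident replicate 2, 19 and 20 without resident replicate 4, 15 and 16 without transplanted replicate 1, 16 below without transplanted replicate 4 and 17 below without transplanted replicate 3. Genes with all libraries beyond ranged from 534 to 670 above and 458 to 794 below, against 517 and 447 with all libraries. The rule has fewer libraries to meet when a library is left out, so a rise in these counts carries no weight. The count of 794 was without transplanted replicate 2, while 509 to 597 were below without another transplanted library, and the cause of that difference was not tested. The contrast with both references together ranged from 3744 to 4612 higher and 3207 to 3811 lower. Upper-quartile scaling set the median difference from cultured cells at 0.22 in place of 0.07. Transplanted levels rest on few counts, summed over the 4 libraries, at Cd163 (4), Clec10a (6), Plbd1 (13), Il3ra (24), Cd79b (31), Efnb2 (33) and F13a1 (63).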

Other observations

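Some genes met the position rule with large differences but were not called, and were picked after their values were seen. The nuclear receptor gene Rxrg stood at 9.84, 9.43, 4.88 and 18.1 CPM in transplanted libraries, 1.22 to 2.83 in resident and 0 to 0.393 in cultured libraries (adjusted p = 0.0569 beyond both, edgeR quasi-likelihood test). The sialyltransferase gene St8sia6 stood at 33.0, 21.6, 21.1 and 33.8 CPM in transplanted, 5.17 to 11.9 in resident and 0 to 0.885 in cultured libraries (adjusted p = 0.0756). The adenosine receptor gene Adora1 stood at 3.49 to 7.09 CPM in transplanted, 1.58 to 2.42 in resident and 0 to 0.0491 in cultured libraries (adjusted p = 0.0680). Pde2a, a cyclic nucleotide phosphodiesterase gene, stood at 5.58, 16.7, 13.3 and 8.29 CPM in transplanted libraries, 129 to 141 in resident and 18.2 to 45.5 in cultured libraries, at -3.61 ± 0.33 from resident and -1.59 ± 0.33 from cultured cells (adjusted p = 0.0593). Timd4, a phosphatidylserine receptor gene of tissue macrophages, stood at 0 to 0.0482 CPM in transplanted, 0.182 to 0.886 in resident and 22.7 to 27.3 in cultured libraries (adjusted p = 0.0890).

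Apoe and Ms4a7, which lay outside the rule, were each lowest in transplanted replicate 2 (1740 and 1.58 CPM) and highest in transplanted replicate 4 (8211 and 24.2 CPM). The choroid plexus gene Ttr varied within groups, at 58.5, 31.3, 39.9 and 9.64 CPM in transplanted and 0.180, 25.2, 6.53 and 101 in resident libraries.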
